A study of Mus musculus with 6 samples.

Results

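Transcripts of 10 cytokine genes were compared between tumor-associated macrophages (TAMs) of 2 genotypes. The genes were Il6, Osm and Lif of the IL-6 type, Il10, Tnf, and the IL-12 family subunits Il12a, Il12b, Il23a, Il27 and Ebi3. They were taken as a list of symbols and are 10 of the 55421 genes in the deposited count table. All 10 were among the 14469 genes that passed the filter on low counts and were tested. The TAMs were sorted on day 15 as live CD45+CD11b+F4/80+Ly6G- cells from subcutaneous MC17-51 fibrosarcomas (M17 in the labels) of young adult mice. Pdcd1f/f control mice carried floxed alleles of Pdcd1, the gene of the inhibitory receptor PD-1. Pdcd1f/fLysMcre mice carried the same floxed alleles together with Cre recombinase under the lysozyme (LysM) promoter, which is active in macrophages, monocytes and neutrophils, so the deletion is not limited to TAMs. Each genotype had 3 RNA-seq libraries of polyA RNA. The sources used here do not say how many mice contributed to a library, so p-values measure the spread between these libraries. The study later blocked IL-10 in tumor-bearing mice because Il10, a gene regulated by IRF8, was higher in its TAMs lacking PD-1 or the phosphatase SHP-2. It also names Il6 and Il23a among the proinflammatory cytokines increased in Pdcd1f/fLysMcre TAMs, with genes called by DESeq2 at a q value under 0.05. The comparison of Il10 with the inflammatory cytokines of this list is made here and is not posed by the study.

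Macrophages secrete all of these cytokines, and most of the genes are switched on by Toll-like receptor and NF-kB signalling. IL-6, oncostatin M (Osm) and leukemia inhibitory factor (Lif) signal through receptor complexes that contain gp130 (Il6st) and activate STAT3. IL-10 also activates STAT3, but in macrophages it restrains the production of TNF, IL-6 and IL-12. TNF is made as a membrane protein and shed by the protease ADAM17. The IL-12 family cytokines are heterodimers that share chains. IL-12 is Il12a (p35) with Il12b (p40), IL-23 is Il23a (p19) with the same p40, IL-27 is Il27 (p28) with Ebi3, and IL-35 is Il12a with Ebi3, so the level of 1 subunit alone does not give the level of a cytokine.

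Promoter windows are shown for 3 members, the IL-6 type genes Il6 and Lif, which were higher in Pdcd1f/fLysMcre TAMs, and Tnf, which had the opposite sign. Each runs from 250 bases before to 50 bases after the start of the gene, 5′ to 3′ on the strand of the gene, and comes from RefSeq on GRCm38.p6. RefSeq windows were matched for 6 of the 10 members, not for Osm, Il10, Il23a and Il27. The Il6 window is chr5:30012864-30013163 on the plus strand, the Lif window is chr11:4257318-4257617 on the plus strand, and the Tnf window is chr17:35201958-35202257 on the minus strand. Capitals mark matches to 5 motifs, searched on both strands.
Il6: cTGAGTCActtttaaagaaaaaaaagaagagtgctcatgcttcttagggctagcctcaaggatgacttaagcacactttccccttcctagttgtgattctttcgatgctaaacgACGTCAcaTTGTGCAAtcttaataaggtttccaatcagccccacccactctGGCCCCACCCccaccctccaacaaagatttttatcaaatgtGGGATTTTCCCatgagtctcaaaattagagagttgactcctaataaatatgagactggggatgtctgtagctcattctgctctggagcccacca
Lif: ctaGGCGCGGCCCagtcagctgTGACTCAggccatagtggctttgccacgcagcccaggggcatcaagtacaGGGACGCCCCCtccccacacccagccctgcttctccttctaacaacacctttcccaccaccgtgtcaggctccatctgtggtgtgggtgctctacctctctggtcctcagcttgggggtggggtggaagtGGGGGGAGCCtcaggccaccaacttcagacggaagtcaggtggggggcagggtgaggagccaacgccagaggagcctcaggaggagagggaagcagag
Tnf: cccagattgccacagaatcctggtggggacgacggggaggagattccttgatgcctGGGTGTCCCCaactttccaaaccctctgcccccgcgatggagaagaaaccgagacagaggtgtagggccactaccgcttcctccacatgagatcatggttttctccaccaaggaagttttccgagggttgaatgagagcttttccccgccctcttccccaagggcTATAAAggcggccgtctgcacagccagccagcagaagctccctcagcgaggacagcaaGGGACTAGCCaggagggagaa
The motifs were GGG and CC separated by any 5 bases for NF-kB, TGANTCA for AP-1, TTGNGCAA for C/EBP, TGACGT for the cAMP response element (CRE) and TATAAA for the TATA box. Among 32851 windows of the same length, 50.8% held the NF-kB letters, 7.81% the AP-1 letters, 2.94% the C/EBP letters, 7.51% the CRE letters and 13.6% the TATA letters. The Il6 window held AP-1, CRE, C/EBP and NF-kB letters, in this order, starting at positions -249, -136, -128, -85 and -44 counted from the start of the gene, the last 2 for NF-kB, and the NF-kB match at -44 overlapped another on the opposite strand at -43. The Lif window held AP-1 letters at -228 and NF-kB letters at -247, -178 and -48, of which the second overlapped another match at -177. The Tnf window held NF-kB letters at -194 and 30 and a TATA box at -29, and no AP-1, C/EBP or CRE letters. A match describes the sequence and is not evidence of binding, and the absence of a match says only that these letters are not in this window.

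The libraries held 41833823 to 51417209 counts. Lyz2, into which the Cre gene is inserted, fell from 216860 to 427 normalized counts in the means of 3 libraries, which separated the libraries as labelled. Lyz1, its neighbour, rose from 156 to 3625. Cre and the loss of Lyz2 transcript were present only in Pdcd1f/fLysMcre libraries, so their effects and that of Pdcd1 deletion cannot be told apart. Pdcd1 itself had 10, 12 and 15 raw counts in Pdcd1f/f and 7, 16 and 11 in Pdcd1f/fLysMcre TAMs, so its loss was not seen in counts that cover the whole gene. Pdcd1f/f replicate 1 and Pdcd1f/fLysMcre replicate 2 stood apart, since their deviation from the mean of the genotype followed the GC content of 8805 genes with a Spearman rho of -0.80 and -0.752, against 0.218 to 0.772 in the other 4 libraries. Y-linked and Xist transcripts also separated the genotypes, with summed Y-linked normalized counts of 1545 to 1914 in Pdcd1f/f and 6267 to 7233 in Pdcd1f/fLysMcre libraries, so a difference in sex composition and the genotype cannot be told apart. Macrophage markers were abundant in every library. The summed level of 8 of them was 8435 to 8766 CPM, counts scaled to the library total, in Pdcd1f/f and 6955 to 7071 in Pdcd1f/fLysMcre TAMs, and Adgre1 (F4/80), Csf1r, Mrc1 and C1qa of these 8 were lower in edgeR's test. Markers of other cells summed to far less than these, but not every gene was low. In CPM per kilobase of exon, S100a8 was above 91.5% of the tested genes and S100a9 above 85.4%, against 92.1% for Il10. Retnlg and Cxcr2 were above 30.6% and 22.0%. Dcn was above 57.8% and Pdgfra above 18.3%, against 48.0% for Lif and 36.7% for Il6. The sum over 8 neutrophil genes was 89.4 to 96.8 CPM in Pdcd1f/f and 79.8 to 84.0 in Pdcd1f/fLysMcre libraries, without overlap, and Csf3r of these was lower (log2 fold change -0.51, edgeR adjusted p = 0.00686). S100a8 and S100a9 overlapped, at log2 fold changes of 0.23 and 0.12, and the median over the 5 tested neutrophil genes was 0.03. The sum over 7 fibroblast and tumour genes was 65.5 to 71.0 against 61.6 to 68.9 CPM, with Col1a2 lower (log2 fold change -1.0, edgeR adjusted p = 0.0121). Col1a1 was at -0.78, Pdgfrb at -0.42, Col3a1 at -0.07, Dcn at 0.03 and Pdgfra at 0.05, and the median over the 6 tested genes was -0.24. Lum, too low to be tested, had 0, 4 and 0 against 13, 17 and 8 raw counts. The sum was 14.1 to 15.6 against 12.5 to 14.6 CPM over 10 T and NK cell genes and 3.60 to 4.47 against 2.55 to 3.13 over 4 B cell genes. A list of 7 dendritic cell genes, cells that can make IL-12 and IL-23, summed to 5.28 to 6.92 CPM in Pdcd1f/f and 6.87 to 8.39 in Pdcd1f/fLysMcre libraries, with Xcr1, Clec9a and Siglech at 10 counts or fewer everywhere. Flt3 was at a log2 fold change of 0.67 without overlap, Zbtb46 at 0.69, Cd209a at 0.43 and Ccr7 at 0.03. Their median was 0.55, and none of the 4 passed the test. The part of these cells in the results was not tested.

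Il6, Lif and Il10 rose in Pdcd1f/fLysMcre TAMs, none of the 10 genes fell, and 7 did not pass the test. The rise was 48% for Il6, 36% for Lif and 28% for Il10 in mean normalized counts. The comparison used the two-sided quasi-likelihood test of edgeR and Benjamini-Hochberg adjustment over all 14469 genes, at an adjusted p under 0.05. Of all genes tested, 2.42% were called higher and 3.01% lower, and the median log2 fold change was -0.0026, against -0.05 over the 10 members. All 3 Pdcd1f/fLysMcre libraries lay above all 3 Pdcd1f/f libraries for 4 members, Il6, Lif, Il10 and Il23a, and below them for Tnf and Il27, while among all genes tested 14.1% lay above and 13.1% below. In bulk RNA, fewer cells that make a cytokine and less transcript per cell cannot be told apart.

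**Figure D1:**
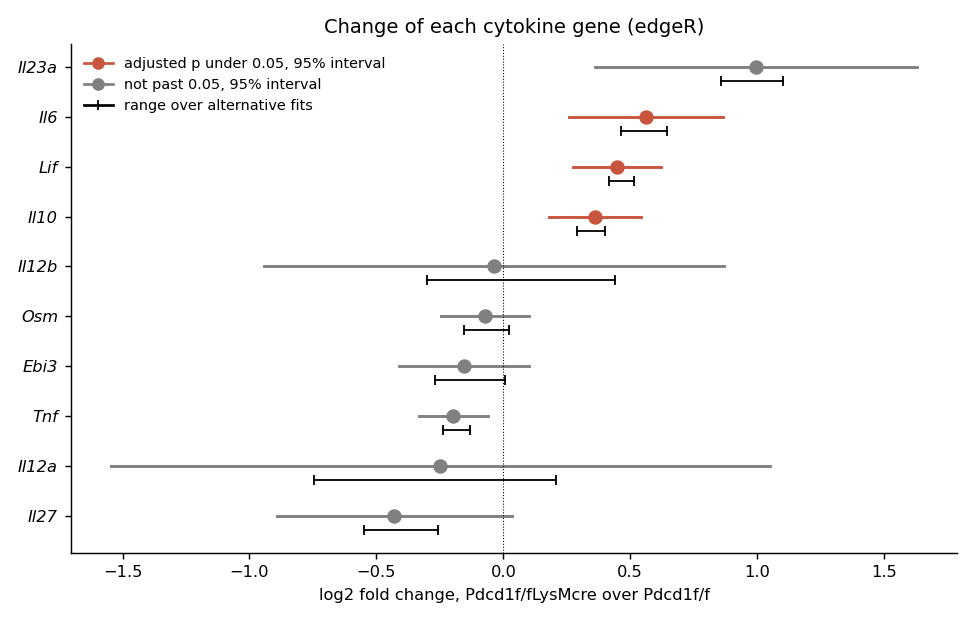
Change of each cytokine gene between genotypes. The horizontal axis is the log2 fold change of Pdcd1f/fLysMcre over Pdcd1f/f TAMs from edgeR; each dot is a gene with its 95% interval, red where the adjusted p was under 0.05, and the black bar beneath gives the range over the alternative fits. Lif, at 0.45, has a short interval well above 0, while the intervals of Il12a and Il12b span 0 widely.

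Il6, the best known inflammatory member of the gp130 group, lies on chromosome 5 of GRCm38 from 30013114 to 30019981 on the plus strand (ENSMUSG00000025746). Pdcd1f/f TAMs had 193, 177 and 149 normalized counts of it, and Pdcd1f/fLysMcre TAMs had 253, 278 and 236. The genotypes did not overlap. The mean was 173 ± 22.2 (SD, n = 3) against 256 ± 21.2 (SD, n = 3), a log2 fold change of 0.56 with a standard error of 0.14, and the adjusted p from edgeR was 0.0403. The call was kept without Pdcd1f/f replicate 1 (0.64, edgeR adjusted p = 0.0103) and lost without any of the other 5, that is, either remaining Pdcd1f/f library or any Pdcd1f/fLysMcre library, where the log2 fold change was 0.47 to 0.61 and the edgeR adjusted p 0.0625 to 0.160. Without both libraries that stood apart, where 12.5% of all genes were called higher, it was 0.58 (edgeR adjusted p = 0.00761).

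Lif, a gp130 cytokine best known for keeping embryonic stem cells undifferentiated, lies on chromosome 11 from 4257557 to 4272514 on the plus strand (ENSMUSG00000034394). It had 617, 633 and 659 normalized counts in Pdcd1f/f and 860.5, 862 and 878 in Pdcd1f/fLysMcre TAMs. The spread within each genotype was small beside the gap between them. The means were 636.5 ± 21.5 and 866.8 ± 9.75 (SD, n = 3 each), with a log2 fold change of 0.45, a standard error of 0.08 and an edgeR adjusted p of 0.00928. With each library left out in turn, the log2 fold change stayed between 0.42 and 0.47, but the call was lost without Pdcd1f/f replicate 2 (edgeR adjusted p = 0.0748) and without Pdcd1f/fLysMcre replicate 1 (edgeR adjusted p = 0.0632).

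Osm, the most abundant member, lies 16.5 kb from Lif on the same strand of chromosome 11, from 4236420 to 4241026 (ENSMUSG00000058755). Its normalized counts were 11830, 13435 and 14398 in Pdcd1f/f and 12592, 12048 and 13051 in Pdcd1f/fLysMcre TAMs. The ranges overlapped. The means were 13221 ± 1297 and 12564 ± 502 (SD, n = 3 each), and the log2 fold change of -0.07 had a 95% interval from -0.24 to 0.10 (edgeR adjusted p = 0.610). Lif and Osm, neighbours on the chromosome and in the same cytokine group, thus had different calls. A difference between their changes was not tested.

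**Figure D2:**
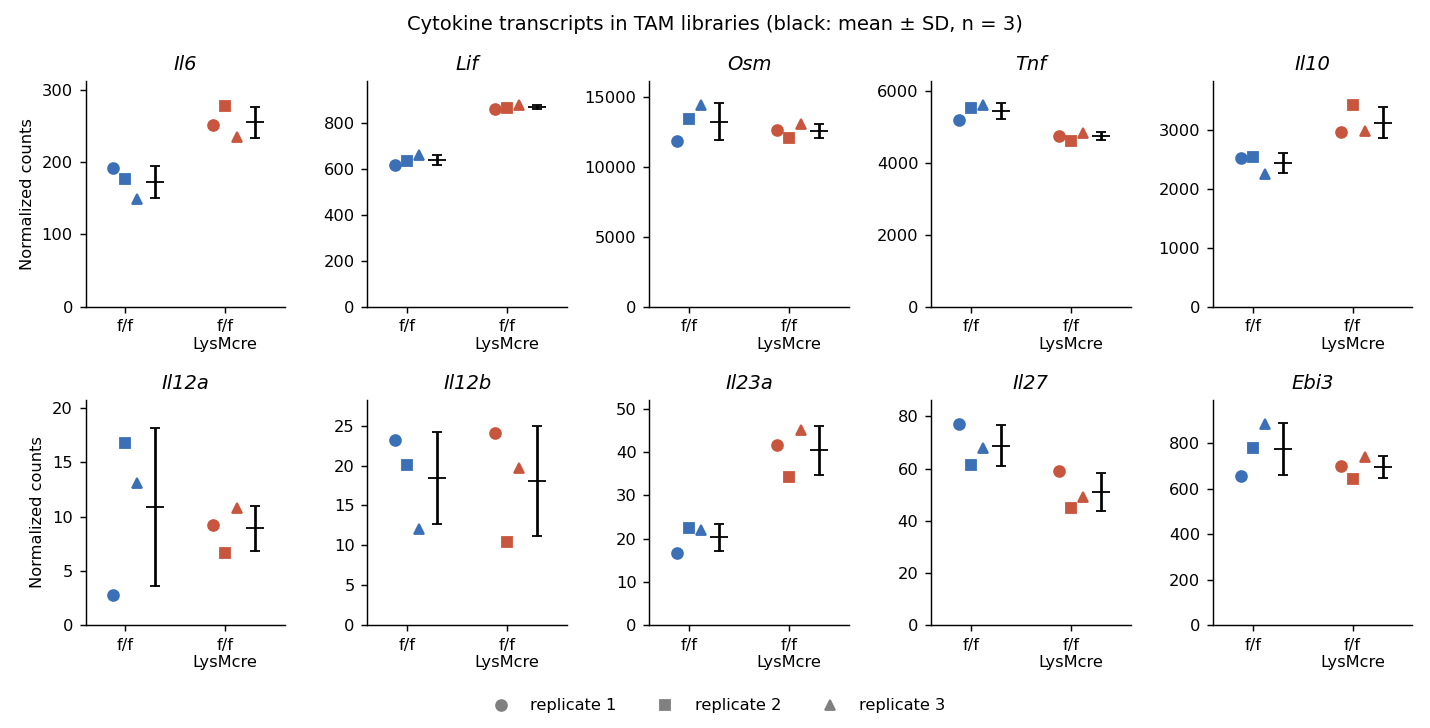
Normalized counts of the 10 cytokine genes in each library. Each panel is 1 gene with its own vertical axis from 0, with Pdcd1f/f libraries in blue and Pdcd1f/fLysMcre libraries in red, marker shape for the replicate number, and the mean ± SD of 3 libraries in black. Il6, Lif, Il10 and Il23a separate upwards, Tnf and Il27 separate downwards, and Osm, Ebi3, Il12a and Il12b overlap.

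Il10, the regulatory cytokine of the list, lies on chromosome 1 from 131019845 to 131024974 on the plus strand (ENSMUSG00000016529), 37 Mb from Pdcd1. It had 2520.5, 2532 and 2240 normalized counts in Pdcd1f/f and 2958, 3417 and 2983 in Pdcd1f/fLysMcre TAMs. Every Pdcd1f/fLysMcre library lay above every Pdcd1f/f library, and Pdcd1f/fLysMcre replicate 2, one of the libraries that stood apart, was the highest. The means were 2431 ± 165 and 3119 ± 258 (SD, n = 3 each). The log2 fold change was 0.36 with a standard error of 0.08 and an edgeR adjusted p of 0.0311. Like that of Il6, the call was kept without Pdcd1f/f replicate 1 (edgeR adjusted p = 0.00821) and lost without any of the other 5, that is, Pdcd1f/f replicate 2 or 3 or any Pdcd1f/fLysMcre library (log2 fold change 0.29 to 0.40, edgeR adjusted p 0.0544 to 0.117). Without both libraries that stood apart it was 0.31 (edgeR adjusted p = 0.002).

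Tnf lies on chromosome 17 from 35199381 to 35202007 on the minus strand (ENSMUSG00000024401). Its normalized counts were 5200, 5533 and 5604 in Pdcd1f/f and 4753, 4625 and 4849 in Pdcd1f/fLysMcre TAMs. The genotypes did not overlap, and Pdcd1f/fLysMcre libraries were the lower ones. The means were 5446 ± 216 and 4742 ± 113 (SD, n = 3 each). With a log2 fold change of -0.20, a standard error of 0.06 and an edgeR adjusted p of 0.0859, Tnf did not pass the threshold. It passed in 5 of 16 alternative fits, among them DESeq2 (adjusted p = 0.0402) and the fits without Pdcd1f/f replicate 1 (-0.24, edgeR adjusted p = 0.0175) and without both libraries that stood apart (-0.22, edgeR adjusted p = 0.00417). It also passed when library offsets for GC and length were added. Of all genes, DESeq2 called 6.19% lower, the offsets 9.24% and the fit without both libraries 13.6%. The log2 fold change of Tnf was below 0 in each of the 16.

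None of the 5 IL-12 family subunits passed the test. Il23a, the p19 chain particular to IL-23, had the largest log2 fold change of the 10 members. It lies on chromosome 10 from 128296139 to 128298752 on the minus strand (ENSMUSG00000025383), 11 Mb from Lyz2. Raw counts were 18, 20 and 20 in Pdcd1f/f and 45, 36 and 46 in Pdcd1f/fLysMcre TAMs, which are 16.7, 22.3 and 21.9 against 41.6, 34.3 and 45.2 normalized counts. The lowest Pdcd1f/fLysMcre library was above the highest Pdcd1f/f library. The log2 fold change was 1.0 with a 95% interval from 0.36 to 1.63 (edgeR adjusted p = 0.0699), and it passed the threshold in 4 of 16 alternative fits, none of them a fit with a library left out. The fit with GC and length offsets was one of the 4, and it called 8.6% of all genes higher.

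Il12a and Il12b, the chains of IL-12, were near the lower limit of what these libraries could measure. Il12a (chromosome 3, 68690644 to 68698547, plus strand, ENSMUSG00000027776) had 3, 15 and 12 raw counts in Pdcd1f/f and 10, 7 and 11 in Pdcd1f/fLysMcre libraries. Il12b, the p40 chain that IL-12 and IL-23 share (chromosome 11, 44400063 to 44414033, plus strand, ENSMUSG00000004296), had 25, 18 and 11 raw counts against 26, 11 and 20. Both overlapped between the genotypes. The 95% interval of the log2 fold change ran from -1.55 to 1.05 for Il12a and from -0.94 to 0.87 for Il12b (edgeR adjusted p = 0.832 and 0.966), so differences of either sign lie within both intervals.

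Il27 encodes the p28 chain of IL-27 and lies on chromosome 7 from 126589010 to 126594941 on the minus strand (ENSMUSG00000044701). It had 77.0, 61.5 and 67.9 normalized counts in Pdcd1f/f and 59.2, 44.8 and 49.2 in Pdcd1f/fLysMcre TAMs. The Pdcd1f/fLysMcre libraries were lower without overlap, but by a narrow gap, and the log2 fold change of -0.43 had a 95% interval from -0.89 to 0.03 (edgeR adjusted p = 0.236). Ebi3, the partner chain of Il27, lies on chromosome 17 from 55952640 to 55957022 on the plus strand (ENSMUSG00000003206). Its normalized counts of 657, 781 and 887 in Pdcd1f/f overlapped with 702, 643 and 739 in Pdcd1f/fLysMcre TAMs (log2 fold change -0.15, standard error 0.12, edgeR adjusted p = 0.441). Il27 shares 103 exon bases with Apobr and Ebi3 shares 270 with the antisense gene Gm16712, and the sources used here do not say whether counting used strand, so their counts may hold reads of these genes.

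Levels of different genes were compared as CPM per kilobase of exon. In Pdcd1f/f TAMs the order ran from Osm at 124 ± 11.8 (SD, n = 3) through Tnf at 70.8 ± 2.71, Il10 at 39.5 ± 2.87, Ebi3 at 14.3 ± 2.08, Lif at 3.12 ± 0.0941, Il6 at 1.52 ± 0.200 and Il27 at 1.43 ± 0.161 to Il12b at 0.200 ± 0.0629, Il23a at 0.193 ± 0.0297 and Il12a at 0.136 ± 0.0911. Osm was above 97.2% of the tested genes in this level over all libraries, Tnf above 94.8% and Il10 above 92.1%, while Il12a was above 6.67% only. Neighbours in this order did not overlap between libraries except Il6 with Il27, Il12b with Il23a and Il23a with Il12a. In Pdcd1f/fLysMcre TAMs Il10 was at 50.2 ± 3.84, Tnf at 61.0 ± 1.98, Il6 at 2.22 ± 0.166 and Il23a at 0.379 ± 0.0554, and Il23a lay above Il12b in every library. The only neighbours that overlapped in this genotype were Il12b, at 0.111 to 0.257, and Il12a, at 0.0820 to 0.135. TAMs of both genotypes therefore held far more transcript of Osm, Tnf and Il10 than of Il6 or of any chain particular to IL-12 or IL-23.

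**Figure D3:**
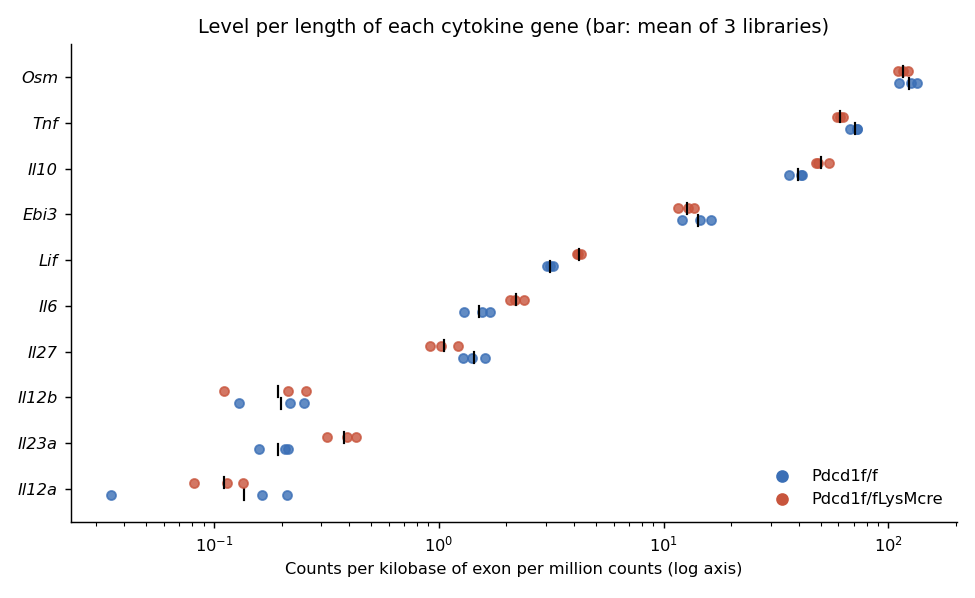
Level of each cytokine gene per length. The horizontal log axis gives CPM per kilobase of exon; each dot is a library, blue for Pdcd1f/f and red for Pdcd1f/fLysMcre, and the bar is the mean of 3 libraries. Levels span from 124 for Osm to 0.136 for Il12a in the Pdcd1f/f means.

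Ratios within a library do not depend on how libraries are scaled. Of 9 ratios compared, 3 separated the genotypes, Tnf, Il6 and Il23a each over Il10. All 3 share Il10 and use genes that had already separated on their own, so they restate those values and add no support. Since Tnf separated downwards and Il10 upwards, separation of their ratio was fixed in advance. Tnf over Il10, per length, was 1.65, 1.75 and 2.0 in Pdcd1f/f and 1.28, 1.08 and 1.30 in Pdcd1f/fLysMcre TAMs. Tnf transcript stayed above Il10 in every library, but the margin was smaller in every Pdcd1f/fLysMcre library, and the log2 ratio differed by -0.56. The log2 ratio of Il6 to Il10 was higher by 0.21, since Il6 rose a little more than Il10, and that of Il23a to Il10 was higher by 0.62. For each of the 3, the exact two-sided permutation test gave p = 0.1, the smallest that 3 libraries against 3 allow, and 0.3 after Benjamini-Hochberg adjustment over the 9 ratios. No difference between ratios could therefore pass a threshold of 0.05. The fourth ratio to Il10, that of Il12b, overlapped between the genotypes, with a log2 difference of -0.42 (exact permutation p = 0.6). With 1 library left out, this difference ran from -0.70 to -0.013.

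Both partners of Ebi3, Il27 and Il12a, were well below it in all 6 libraries, while the chains of IL-12 and of IL-23 were closer to each other. Il12b over Il23a, the 2 chains of IL-23, was 1.57, 1.03 and 0.641 per length in Pdcd1f/f and 0.665, 0.360 and 0.504 in Pdcd1f/fLysMcre TAMs, so p40 transcript was below p19 transcript in every Pdcd1f/fLysMcre library. The ranges overlapped narrowly, and the log2 difference of -1.04 had an exact permutation p of 0.2. The lengths used were all exon bases of a gene, 2247 for Il23a and 1967 for Il12b. Their longest coding transcripts have 1360 and 1944 bases, and the shorter length for Il23a would lower this ratio in every library. The order of the 2 chains in Pdcd1f/f TAMs thus depends on the length used. A p40 level below p19 is not shown to be particular to Pdcd1f/fLysMcre TAMs. Il27 over Ebi3 was 0.133, 0.0897 and 0.0872 in Pdcd1f/f and 0.0960, 0.0795 and 0.0759 in Pdcd1f/fLysMcre TAMs (exact permutation p = 0.3), with Ebi3 in excess in all 6 libraries. Il12a over Ebi3, the chains of IL-35, was at most 0.0150 in any library. Il12b over Il12a ranged from 0.796 to 6.30 in Pdcd1f/f and from 1.33 to 2.18 in Pdcd1f/fLysMcre libraries (exact permutation p = 1.0), where the value of 6.30 rested on the 3 counts of Il12a in Pdcd1f/f replicate 1.

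**Figure D4:**
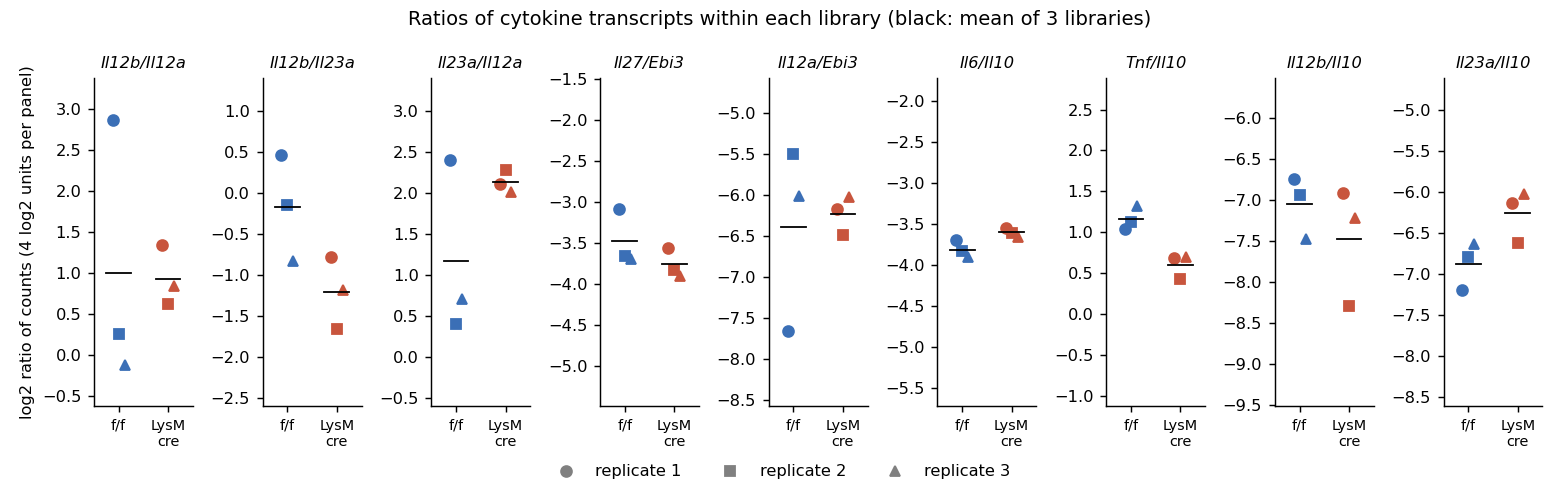
Log2 ratios of cytokine counts within each library. Each panel is 1 ratio and spans 4 log2 units on its vertical axis, with Pdcd1f/f in blue, Pdcd1f/fLysMcre in red, marker shape for the replicate number and the mean of 3 libraries as a black bar. Tnf/Il10 is lower in every Pdcd1f/fLysMcre library, Il6/Il10 and Il23a/Il10 are higher in every one, and ratios with Il12a or Il12b scatter.

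Receptors, signalling genes and regulators of these cytokines were read in the same fit, as 8 lists. Among receptor chains, 12 of 14 were tested, 1 fell and none rose, with a median log2 fold change of -0.17. Over all genes tested, 3.01% fell and 2.42% rose. The gene that fell was Lifr, the chain that pairs with gp130 for Lif, from 1517 to 944 normalized counts in the means. It had 1642, 1445 and 1463 normalized counts in Pdcd1f/f and 1088, 863 and 880.0 in Pdcd1f/fLysMcre TAMs. All Pdcd1f/fLysMcre libraries were far below the others, with a log2 fold change of -0.68, a standard error of 0.10 and an edgeR adjusted p of 0.00393, and the call held in all 16 alternative fits. Lif and the chain that binds it thus changed in opposite directions in the same libraries. No other chain passed in this fit. The log2 fold change was -0.04 for Il6ra, 0.06 for Il6st (gp130), -0.23 for Il10ra, -0.34 for Il11ra1, -0.07 for Il10rb, -0.12 for Tnfrsf1a and -0.02 for Tnfrsf1b. Of these, Il10ra passed in 5 of 16 alternative fits, and Il11ra1 and Tnfrsf1a in 2 each. With 1 library left out, Il11ra1 ran from -0.51 to -0.22. Il12rb1, which serves IL-12 and IL-23, had 74.3 against 44.3 normalized counts in the means, a log2 fold change of -0.74 and no overlap (edgeR adjusted p = 0.0742). Its change passed in 2 of 16 alternative fits. Il23r had at most 2.19 normalized counts in any library.

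Of 11 other ligands of these families, 4 had enough counts to be tested and none passed. Beside this list and the signalling and shedding lists below, 2.42% of all genes tested rose and 3.01% fell. Il11, another gp130 cytokine, had 52.9, 34.6 and 36.1 normalized counts in Pdcd1f/f and 61.1, 77.1 and 97.3 in Pdcd1f/fLysMcre TAMs. It lay higher without overlap, as Il6 and Lif did, with a log2 fold change of 0.92 (edgeR adjusted p = 0.0655), and passed in 6 of 16 alternative fits. Clcf1 (0.22, past in 3 of 16), Cntf (0.44) and Ltb (-0.54) overlapped between genotypes. Of the 1073 exon bases of Cntf, 847 are shared with Zfp91 on the same strand. Clcf1 shares 311 with AC109138.7, and the receptor chain Il10rb 569 with Gm21970, also on the same strand. How reads in shared bases were counted is not given in the sources used here, so these values may not be those of the gene alone. In the signalling lists, Jak2, a kinase of gp130 and IL-12 receptors, rose among 8 JAK, STAT and SOCS genes (log2 fold change 0.25, edgeR adjusted p = 0.0485), and Traf1, an NF-kB target that binds TNF receptor 2, rose among 13 genes of TNF receptor signalling (log2 fold change 0.36, edgeR adjusted p = 0.0148). The Jak2 call was kept in 8 of 16 alternative fits. It was lost with RLE size factors, library size alone and limma-trend (adjusted p 0.0512 to 0.0621) and when any library except Pdcd1f/f replicate 1 was left out (edgeR adjusted p 0.09 to 0.21). The Traf1 call was kept in 13 of 16 and was lost without Pdcd1f/f replicate 2 or Pdcd1f/fLysMcre replicate 1 or 3 (edgeR adjusted p 0.0562 to 0.0935). Stat3 and Socs3, which IL-6 type cytokines and IL-10 use, had log2 fold changes of -0.14 and -0.24 and did not pass. Tyk2 was at -0.22, and Cflar, Birc2 and Birc3 of TNF receptor signalling at 0.18, 0.18 and 0.13, none past the threshold. Of 16 alternative fits, Socs3 and Cflar passed in 3 each, and Stat3, Tyk2 and Birc2 in 2 each. With 1 library left out, Socs3 ran from -0.35 to -0.14, Tyk2 from -0.33 to -0.12 and Birc2 from 0.11 to 0.24. None of 5 genes of TNF shedding passed. Adam17 itself was at 0.06, Frmd8 at -0.10 and Rhbdf2 at -0.15. Rhbdf1, a relative of Rhbdf2, had 441 against 313 normalized counts in the means, a log2 fold change of -0.49 and no overlap (edgeR adjusted p = 0.0881), and passed in 6 of 16 alternative fits.

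Among 19 transcriptional regulators of these cytokines, 1 rose and 4 fell, with a median log2 fold change of -0.23, beside 2.42% and 3.01% of all genes tested and a median of -0.0026. Bhlhe40, a repressor of Il10 transcription, rose from 34069 to 43992 normalized counts in the means (log2 fold change 0.37, edgeR adjusted p = 0.00366), and the call held in all 16 alternative fits. Maf, an activator of Il10, fell by 0.26 on the log2 scale (edgeR adjusted p = 0.0391). Il10 rose in the same libraries, and a link between any of the 19 regulators and Il10 was not tested. Jun and Atf3, of the AP-1 and ATF families, fell by 0.47 and 0.29 on the log2 scale (edgeR adjusted p = 0.0167 and 0.0327), and Irf1, an activator of Il12a and Il27, fell by 0.36 (edgeR adjusted p = 0.0446). The calls of Jun, Atf3, Maf and Irf1 were kept in 12 of 16 alternative fits each. They were lost without Pdcd1f/f replicate 2 or 3, without Pdcd1f/fLysMcre replicate 1, and without Pdcd1f/fLysMcre replicate 2 (replicate 3 for Maf), at edgeR adjusted p of 0.0589 to 0.102 for Jun, 0.102 to 0.175 for Atf3, 0.0982 to 0.176 for Maf and 0.147 to 0.185 for Irf1. Of all 19, the libraries of the genotypes did not overlap for 4 that were higher and 8 that were lower in Pdcd1f/fLysMcre TAMs, where 14.1% and 13.1% of all genes tested were so. Those that did not pass included Rel and Nfkb1, subunits of NF-kB, at 0.30 and 0.18 (edgeR adjusted p = 0.0697 and 0.0830), and, in the other direction, Fos at -0.28, Irf8 at -0.30, Nfil3 at -0.23 and Cebpd at -0.54 (edgeR adjusted p = 0.0508, 0.0519, 0.0655 and 0.0703).

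Of 11 genes of cytokine mRNA stability, Elavl1, which stabilises transcripts with AU-rich elements, rose by 0.24 on the log2 scale (edgeR adjusted p = 0.0405) and Arid5a, which protects Il6 mRNA, fell by 0.47 (edgeR adjusted p = 0.0300). The median log2 fold change of the 11 was 0.007, and of all genes tested 2.42% rose and 3.01% fell. Elavl1 kept its call in 8 of 16 alternative fits. Among those that lost it were library size alone (edgeR adjusted p = 0.0519), limma-trend (adjusted p = 0.0512) and the omission of any library except Pdcd1f/f replicate 1 (edgeR adjusted p 0.0946 to 0.233), and Arid5a lost its call without Pdcd1f/f replicate 2 or 3 or Pdcd1f/fLysMcre replicate 1 or 2 (edgeR adjusted p 0.104 to 0.148). Zfp36 (tristetraprolin), which promotes the decay of Tnf mRNA, was at -0.22 and Dusp1 at -0.20, neither past the threshold. Each of them passed in 5 of 16 alternative fits. Among 7 IL-10 response genes of macrophages, 1 rose and 1 fell, beside 2.42% and 3.01% of all genes tested. The median log2 fold change of the 7 was -0.23. Il1rn, the IL-1 receptor antagonist, had 38784, 37142 and 37189 normalized counts in Pdcd1f/f and 58667, 63324 and 55822 in Pdcd1f/fLysMcre TAMs (log2 fold change 0.65, edgeR adjusted p = 3.65e-04). Il4ra, the IL-4 receptor alpha chain, had 28274, 33575 and 37187 against 18088, 16297 and 19595 (log2 fold change -0.87, edgeR adjusted p = 0.00102). The calls of Il1rn and Il4ra held in all 16 alternative fits. None of the others passed, with Etv3 at 0.16, Socs3 at -0.24, Nfil3 at -0.23, Sbno2 at -0.29 and Bcl3 at -0.09. Nfil3 passed in 6 of 16 alternative fits, and Etv3 and Socs3 in 3 each. An IL-10 response as a whole was not tested. Exons of Il4ra, Bhlhe40, Jun, Maf, Irf1 and Elavl1 overlap a gene on the other strand, and whether counting used strand is not given in the sources used here.

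**Figure D5:**
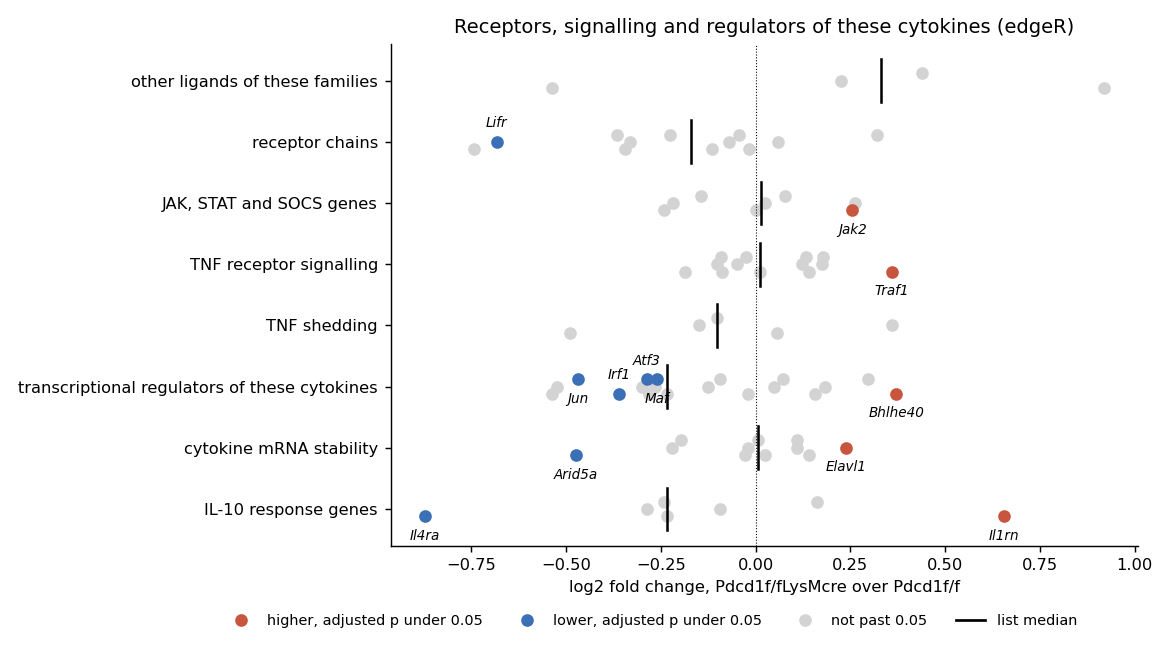
Log2 fold changes of receptors, signalling genes and regulators in 8 lists. The horizontal axis is the log2 fold change of Pdcd1f/fLysMcre over Pdcd1f/f TAMs from edgeR; each dot is a tested gene, red where it rose and blue where it fell at an adjusted p under 0.05, grey otherwise, and the black bar is the median of the list. Among called genes, Lifr and Il4ra lie furthest to the left and Il1rn furthest to the right. Il12rb1 and Il11, which were not called, lie further out than Lifr and Il1rn, and most genes lie near 0.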

How the data were processed

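RNA-seq of TAMs was analysed, with 3 libraries for each genotype, grouped by GEO's labels. Raw counts per Ensembl gene were deposited by the authors, made with cutadapt (version 2.5), STAR (version 2.7.3a) on GRCm38 and featureCounts (Subread version 1.6.2), as the submitters' processing notes name them. Strand use and treatment of multi-mapped reads are not given in the sources used here, and overlapping genes could share reads. A second deposited table holds a normalized signal for 16552 genes, whose values equal the counts divided by 1 DESeq2 (version 1.24.0) size factor per library (0.895 to 1.08). These values are printed as normalized counts. All sample columns were used.

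The raw counts were tested with edgeR (version 4.0.16, R version 4.3.3), with filterByExpr (minimum count 10, minimum total count 15), TMM, robust glmQLFit, the two-sided glmQLFTest and Benjamini-Hochberg adjustment over 14469 genes. Symbols, positions and exon lengths came from GENCODE M21. The biological coefficient of variation was 8.92%. Library totals were 41833823 to 51417209 counts, so genes with few counts, such as Il12a, were measured roughly. Ratios were log2 of counts plus 0.5, compared with exact two-sided permutation tests (scipy version 1.17.1). The alternatives were RLE size factors, library size alone, other filters on low counts, DESeq2 (version 1.42.0), limma-trend (limma version 3.58.1) on log2(value + 1), the replicate number as a block, loess offsets (span 0.5) for GC content and gene length, each library left out, both libraries that stood apart left out, a threshold of 0.01 and, for ratios, 2 added counts. Scripts were tested on simulated data.

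The members, the gene lists and the tests were chosen with earlier results of these data known. Named genes were all members, the label checks and, of each list, the genes past the threshold, filled up to 4 by adjusted p. Il6ra, Il6st, Il10rb, Tnfrsf1a, Tnfrsf1b, Il23r, Rel, Nfkb1, Fos, Irf8, Cebpd, Sbno2 and Bcl3 were added after their values were seen.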

Additional observations from a re-analysis of the deposited data

How the results depend on the processing

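The depth limits Il12a and Il12b most, with 3 to 26 raw counts in a library, and Il23a and Il27 next. Over all genes, 350 were higher and 436 lower. The numbers were 884 and 1067 with all genes with at least 1 count, 749 and 775 with DESeq2, 1245 and 1337 with GC and length offsets, 1270 and 1397 with these offsets and the replicate block, 1801 and 1956 without the 2 libraries that stood apart, 109 and 174 at a threshold of 0.01, and from 82 to 1478 and from 139 to 1703 with 1 library left out, lowest without Pdcd1f/f replicate 2 or Pdcd1f/fLysMcre replicate 1 and highest without Pdcd1f/f replicate 1. The cause was not tested. Of the members, 3 were higher, against 4, with Il23a, under both other filters on low counts and both sets of offsets, 1 at a threshold of 0.01 and 0 to 3 with 1 library left out. None was lower, against 1 (Tnf) with DESeq2, with either set of offsets and without the 2 libraries that stood apart, and 0 to 1 with 1 library left out.

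Direction reversed with GC and length offsets, without and with the replicate block, for Osm (0.023 and 0.023), Ebi3 (0.0035 and 0.0056), Frmd8 (0.013 and 0.013), Adam17 (-0.034 and -0.034), Tnfrsf1a (0.0017 and 0.0026) and Tnfrsf1b (0.065 and 0.066), and without the 2 libraries that stood apart for Il12b (0.44) and Cntf (-0.0050). With 1 library left out it reversed for Il12a (-0.75 to 0.21), Il12b (-0.30 to 0.24), Tnfrsf1b (-0.11 to 0.053), the ratio Il12b/Il12a (-0.63 to 0.86) and the ratio Il12a/Ebi3 (-0.48 to 0.61, and -0.0077 with offsets). None of these reversed values was past a threshold. Of 771 values of 48 genes, 631 kept direction and call, 53 lost a call, 66 gained one and 21 reversed. Scalings moved the median of all genes by less than 0.02.

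The replicate numbers did not pair the libraries, since libraries of the same number deviated together with correlations of -0.0157, -0.0896 and 0.186. With the replicate block, Il6 had a log2 fold change of 0.57 (edgeR adjusted p = 0.0287), Lif 0.45 (edgeR adjusted p = 0.0138) and Il10 0.36 (edgeR adjusted p = 0.0147). Of the 48 genes, Elavl1 alone changed its call with the block alone (0.24, edgeR adjusted p = 0.0542).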

Other observations

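The transcripts of many cytokines carry AU-rich elements, short repeats bound by factors that control the decay of cytokine mRNA. The nonamer TTATTTATT occurs 5 times in the GENCODE transcript of Tnf, 2 times in those of Lif and Il27 and 1 time in those of Il12a and Il23a, and it was not found in those of Il6, Osm, Il10, Il12b and Ebi3. Of 21877 genes, 7.99% have it. The shorter pentamer ATTTA was present 0.867 times per kb in Ebi3 and up to 5.34 times per kb in Il10, with 4.27 in Il6, 4.88 in Tnf and 1.74 in Lif, against a median of 0.822 over all genes.

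Within the pair of libraries that stood apart, Pdcd1f/fLysMcre replicate 2 against Pdcd1f/f replicate 1, the log2 difference in normalized counts was 0.53 for Il6, 0.48 for Lif, 0.44 for Il10, 1.02 for Il23a, -0.17 for Tnf and -0.78 for Il27, with the same sign as in the comparison of all libraries. It was 1.13 for Il12a and -1.11 for Il12b, on few counts, and 0.03 for Osm and -0.03 for Ebi3.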
